A study of Mus musculus with 10 samples.

Results

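The replication-dependent histone genes of the mouse are 68 of the 23992 gene symbols in the count files, taken as every symbol that begins with Hist1h, Hist2h, Hist3h or Hist4h, with 1 transcript for each symbol (the one with the highest mean reads). By position they form 4 clusters on GRCm38 in the GENCODE annotation. The Hist1 cluster holds 54 members on chromosome 13 (21715763 to 23934851), Hist2 holds 10 on chromosome 3 (96219865 to 96270132), Hist3 holds 3 on chromosome 11 (58948920 to 58956830) and Hist4 holds 1 on chromosome 6 (136801553 to 136804415). By protein they are 6 genes of linker histone H1 and 18, 19, 12 and 13 genes of the core histones H2A, H2B, H3 and H4.

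The data are 10 RNA libraries of regulatory T cells (Tregs) from C57BL/6J mice. Tregs are the Foxp3-expressing class of CD4 T cells that holds other immune cells in check. Crlf2 encodes a subunit of the receptor for thymic stromal lymphopoietin (TSLP), an epithelial cytokine. Crlf2-deleted lung Tregs (3 libraries) came from Crlf2fl/fl Foxp3YFP-Cre mice, in which Cre is expressed from Foxp3, and control lung Tregs (3 libraries) from Foxp3YFP-Cre mice that the labels call wild-type. Both sets of lungs were allergic lungs of animals immunized with OVA, so Cre and the immunization are common to both. Natural Tregs from the spleens of wild-type mice were cultured for 24 h and stimulated through the T cell receptor (TCR) by anti-CD3 and anti-CD28, with TSLP added (TCR + TSLP, 2 libraries) or without it (TCR, 2 libraries). Ages are not given, nor whether each library is a mouse or culture of its own; the p-values below hold for the spread among these libraries, which may be technical.

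Replication-dependent histone genes are transcribed in S phase, when newly made DNA is wrapped around core histone octamers and bound between them by H1. Their transcripts lack introns and normally lack a poly(A) tail: the 3′ end is formed by a cut just after a short stem-loop, which is bound by the protein SLBP and governs the life of the RNA. Some of the genes can also give polyadenylated transcripts that read past the stem-loop, as has been described in differentiated cells.

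The stem-loop is the element that marks this class of RNAs. It was found in the annotated transcripts of 43 of the 67 members that have a coding transcript (64.2%). The search took a run of 16 bases after the stop codon, on the strand of the transcript, that begins with GG, ends with CC and holds TTT and then A in the positions seen below, with the 3 bases after GG pairing with the 3 before CC (G-T pairs allowed). Of 21810 other protein-coding genes, 38 had it (0.174%). Among the 24 members with no match, 17 have an annotated transcript that ends within 60 bases of the stop codon. The rest, such as Hist2h2be and Hist1h2bc, have transcripts that run further and still gave no match. The 6 forms of the stem-loop are shown on 1 member each, 5′ to 3′ in DNA letters from the GENCODE transcripts, with the 16 bases of the stem-loop in capitals.
Hist1h1c: caaaaGGCTCTTTTCAGAGCCaccactccc
Hist1h2bk: ccaaaGGCTCTTTTAAGAGCCactaaacca
Hist2h2ac: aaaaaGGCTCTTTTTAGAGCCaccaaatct
Hist1h4d: ccaaaGGCCCTTTTCAGGGCCactaccttc
Hist1h4i: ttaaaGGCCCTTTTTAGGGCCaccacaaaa
Hist1h4b: caaaaGGTCCTTTTCAGGACCactcactga
The first form was in 25 members, the second in 6 and the third in 1 (Hist2h2ac). The last 3 forms were in 7, 2 and 2 members, all of them H4 genes. The annotated transcripts of 22 members run 100 or more bases past the stem-loop, and 13 of these hold AATAAA, the usual signal for polyadenylation, after it. Of the 21 members with fewer than 100 bases past it, 0 do. These have only 3 to 74 bases to search, against 151 to 4884 in the 22, so the 2 counts cannot be compared.

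The coding sequences are alike within a family, and this limits what reads of 50 bases can tell. The median member had 73.4% of its 50-base coding windows in at least 1 other member (for Hist3h2bb-ps, which has no coding transcript, the windows of the whole transcript were used), and 50 members had 50% or more shared in this way. The medians were 10.95% in H1, 83.3% in H2A, 74.1% in H2B, 84.7% in H3 and 70.3% in H4. In Hist1h1a, Hist1h1b, Hist1h1t, Hist2h2bb, Hist2h2be and Hist4h4 no coding window was found in another member. Windows also occur in transcripts of genes that are no members: 32 members had at least 1 there, among them Hist2h2bb with 53.6% of its windows and Hist3h2a with 100%. The sources used here do not give the strand rule or how reads matching several copies were counted. Values of single members with windows shared in either way, and of members that overlap other annotated genes, such as Hist1h1e with Hist1h2be, are therefore uncertain.

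Summed over the 68 members, the deposited RPKM (reads per kilobase of transcript, scaled to the library total) was 873.5, 832.6 and 949.5 in Crlf2-deleted lung and 861.9, 906.3 and 681.5 in control lung. It was 111.8 and 105.7 in TCR + TSLP and 247.7 and 224.3 in TCR. Every lung library thus lay above every spleen library, and both TCR + TSLP libraries lay below both TCR libraries. As a share of the reads listed, the members held 0.258%, 0.255% and 0.257% in Crlf2-deleted lung and 0.290%, 0.349% and 0.191% in control lung, against 0.0131% and 0.0125% in TCR + TSLP and 0.0332% and 0.0266% in TCR. Between 4555 and 47196 reads per library stand behind these shares.

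**Figure D1:**
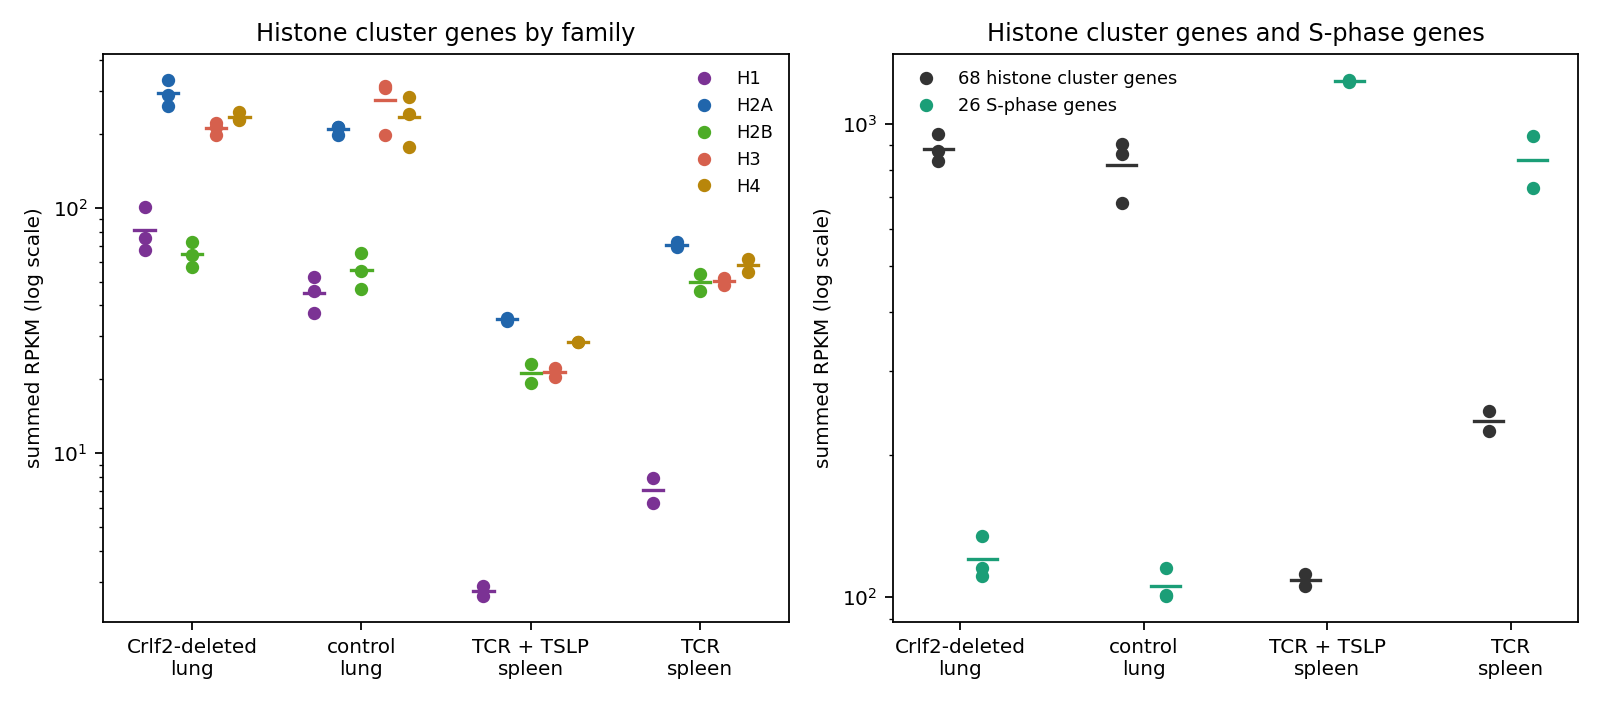
Summed deposited RPKM (log scale) in each library, by histone family on the left and for all 68 histone genes beside 26 S-phase genes on the right. Points are libraries and lines are group means; the histone genes lie between 681.5 and 949.5 in lung and between 105.7 and 247.7 in spleen, while the S-phase genes lie between 100.4 and 134.7 in lung and between 731.0 and 1237 in spleen.

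The makeup of the histone reads also differed between the tissues. H1 genes gave 12.5% to 28.2% of the members' reads in the 6 lung libraries and 6.72% to 9.40% in the 4 spleen libraries. H2B genes gave 5.01% to 7.63% in lung and 20.1% to 21.8% in spleen. Neither range overlapped between the tissues, nor did those of the other families, where the gaps were narrow. H2A genes gave 21.05% to 28.59% in lung and 28.65% to 32.38% in spleen. H3 genes gave 22.56% to 42.67% in lung and 19.5% to 22.14% in spleen, and H4 genes 13.85% to 18.05% and 18.3% to 20.46%. The shares of a library add up to a fixed whole, so they are not independent. At the level of single genes, Hist1h4d had the highest mean RPKM in both lung groups (135 ± 6.51 in Crlf2-deleted and 144 ± 40.9 in control, SD, n = 3 each), followed by Hist2h3b (79.0 ± 9.87 and 106 ± 26.9). This order depends on the listed lengths, which for 31 members, these 2 among them, are those of the coding part alone. Hist2h3b (411 bases) had fewer mean reads over all libraries than Hist2h3c2 (1020 bases) and Hist2h3c1 (1825 bases): 1056.6, against 1299.3 and 1279.9. In TCR + TSLP the highest was Hist1h4i (9.21 ± 0.05, SD, n = 2) and in TCR it was Hist1h2bj (14.9 ± 2.19, SD, n = 2). The leading histone genes of the 2 tissues were thus not the same ones.

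Library sizes were 1439675 (control lung 2) to 18349039 reads in lung and 27237313 to 51671901 in spleen. Crlf2 itself was at 3.54 to 9.04 CPM (counts relative to the TMM-scaled library size) in the Crlf2-deleted libraries and 92.6 to 145 CPM in the control lung libraries, with no overlap. The 6 Treg markers, Foxp3 among them, summed to 235.3 to 271.8 RPKM in Crlf2-deleted lung, 99.26 to 153.8 in control lung, 391.8 to 407.2 in TCR + TSLP and 243.3 to 274.5 in TCR. Single markers did not all follow these sums. In edgeR 4 of the 6 were higher in lung than in spleen, 1 was lower and 1 was not called, with a median log2 fold change of 0.81. Markers of other cells stood out in the lung. The 3 lung epithelial markers summed to 1151 to 8047 RPKM in Crlf2-deleted lung, 5204 to 27650 in control lung and 0 in all 4 spleen libraries. The 3 macrophage and monocyte markers summed to 185.3 to 215.9 RPKM in Crlf2-deleted lung, 39.47 to 728.8 in control lung and 1.44 to 1.92 in spleen. In bulk RNA, fewer cells of a type and less RNA per cell cannot be told apart.

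The comparison of lung with spleen asks whether RNAs without poly(A) tails stand at another level in the lung libraries, since a total RNA kit with removal of ribosomal RNA is stated for the TCR-stimulated Tregs and the kit of the lung Tregs is not stated separately. Histone genes were higher in lung almost throughout. Of 67 members with enough reads for the test, 63 were higher, 0 were lower and 4 were not called (edgeR's quasi-likelihood test, adjusted p under 0.05), where 34.8% of all 14445 genes tested were higher and 35.7% lower. The median log2 fold change of the tested members was 2.63, against -0.002 for all genes. In 59 members the lowest of 6 lung libraries lay above the highest of 4 spleen libraries, which held for 23.0% of all genes. By family, 4 of 5 H1, 18 of 18 H2A, 16 of 19 H2B, 12 of 12 H3 and 13 of 13 H4 genes were higher, with medians of 4.62, 3.18, 2.43, 2.58 and 2.44.

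The largest differences were in the 3 genes for histone H3 of the Hist2 cluster. Hist2h3c1 had a lowest, median and highest level of 136, 184 and 357 CPM in lung, against 1.20 and 1.38 CPM in TCR + TSLP and 5.46 and 3.70 CPM in TCR. All 6 lung libraries lay far above the 4 spleen libraries, a difference of 6.48 ± 0.25 on the log2 scale (SE; adjusted p = 2.14e-09, edgeR). Hist2h3c2 (6.48 ± 0.32, adjusted p = 1.67e-08, edgeR) and Hist2h3b (6.14 ± 0.25, adjusted p = 3.45e-09) followed. These 3 genes share 94.2% to 100% of their coding windows with other members, so how reads were divided among them is uncertain. The other 9 H3 genes, all in the Hist1 cluster, differed less, between 0.66 in Hist1h3c and 3.16 in Hist1h3d.

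Linker histone genes were the family with the highest median. Hist1h1c, the gene of H1.2, had a lowest, median and highest level of 168, 246 and 355 CPM in lung, against 4.60 and 4.93 CPM in TCR + TSLP and 9.91 and 9.63 CPM in TCR. The groups did not overlap, with a difference of 5.16 ± 0.18 on the log2 scale (SE; adjusted p = 9.35e-10, edgeR). Hist1h1e, the gene of H1.4, had a lowest, median and highest level of 106, 161 and 207 CPM in lung, against 2.06 and 2.43 CPM in TCR + TSLP and 12.5 and 5.97 CPM in TCR (log2 fold change 5.12 ± 0.27, adjusted p = 1.73e-08, edgeR). Hist1h1d (H1.3) and Hist1h1b (H1.5) were also higher, by 4.62 ± 0.23 and 3.38 ± 0.28 on the log2 scale. Hist1h1a, the gene of H1.1, was the exception of the family: its lung libraries held 0.44, 2.09 and 2.99 CPM (lowest, median and highest), a range that overlapped the spleen libraries (0.66 and 0.74 CPM in TCR + TSLP, 3.02 and 2.40 CPM in TCR), with a log2 fold change of 0.52 ± 0.53 (adjusted p = 0.398, edgeR).

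Among H4 genes, Hist1h4d led with a lowest, median and highest level of 150.0, 181 and 343 CPM in lung, against 2.51 and 2.69 CPM in TCR + TSLP and 8.57 and 6.05 CPM in TCR. The groups did not overlap (log2 fold change 5.57 ± 0.26, adjusted p = 6.82e-09, edgeR). Hist2h4, which shares 6.1% of its coding windows, was higher by 5.11 ± 0.42, and Hist1h4n by 2.91 ± 0.24 on the log2 scale. Hist2h4 had 9 and 10 reads in TCR + TSLP and 59 and 16 in TCR. It passed the filter on low counts through its lung libraries, so its rise partly follows from the filter. Hist1h4i, the leading H4 gene of the TCR + TSLP libraries, had a lowest, median and highest level of 29.7, 34.0 and 49.4 CPM in lung, against 11.6 and 11.5 CPM in TCR + TSLP and 18.2 and 18.9 CPM in TCR. Its difference was among the smallest of the family (1.29 ± 0.15, adjusted p = 1.19e-05, edgeR). The 4 leading H2A genes were higher by 2.18 ± 0.15 (Hist1h2ag), 3.24 ± 0.17 (Hist1h2ap), 3.54 ± 0.16 (Hist1h2ao) and 4.16 ± 0.16 (Hist2h2aa1) on the log2 scale.

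**Figure D2:**
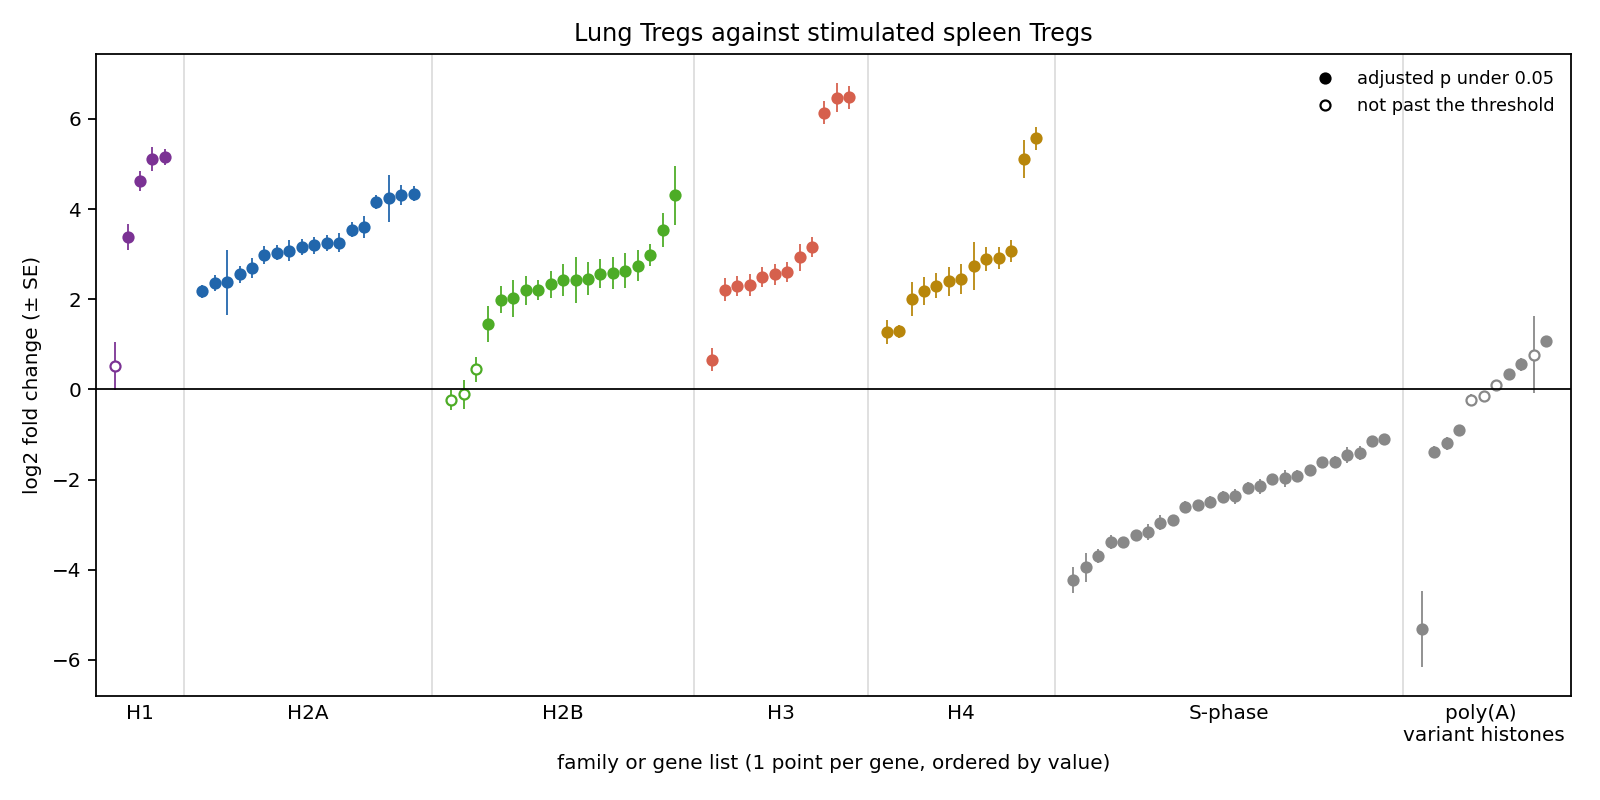
Log2 fold change of lung Tregs over spleen Tregs for the tested members of each family and for 2 gene lists, 1 point per gene with its SE. Filled points passed an adjusted p of 0.05; 63 of 67 histone genes are filled and above 0, and all 26 S-phase genes are filled and below 0.

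The 4 members that were not called were Hist1h1a and 3 H2B genes. Hist1h2bj held 6.69, 7.57 and 9.34 CPM in lung (lowest, median and highest), against 5.83 and 4.27 CPM in TCR + TSLP and 19.4 and 14.1 CPM in TCR. The lung libraries lay between the 2 spleen groups (log2 fold change -0.24 ± 0.23, adjusted p = 0.366, edgeR). Hist1h2bk lay at 0.44 ± 0.29 (adjusted p = 0.187, edgeR). Hist2h2be, which was outside the rule for named genes and is given because its values stood apart, lay at -0.10 ± 0.32 (adjusted p = 0.787, edgeR), with 2.53 to 4.38 CPM in lung and 3.23 to 3.62 CPM in spleen.

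Genes that work with the histones in S phase went the other way. All 26 of 26 S-phase genes (replication origin licensing, DNA polymerases, nucleotide synthesis and S-phase cyclins) were lower in lung, with a median log2 fold change of -2.38. Pcna, the sliding clamp of DNA polymerases, was at 70.9, 74.9 and 95.6 CPM in lung (lowest, median and highest) and at 644, 851 and 891 CPM in spleen (-3.39 ± 0.10, adjusted p = 3.59e-10, edgeR). Rrm1, the large subunit of ribonucleotide reductase, lay at -3.22 ± 0.09, Cdc6, which loads the replicative helicase, at -3.70 ± 0.16, and Pole, the catalytic subunit of a replicative polymerase, at -2.90 ± 0.12 on the log2 scale. Of 14 histone chaperones, 12 were lower and 2 higher, among them Nasp, which carries H1 and H3-H4 (-3.72 ± 0.11), and Nap1l1 (-4.22 ± 0.10). Of 15 genes for the processing and transcription of histone mRNA, 13 were lower and 1 higher. Srrt (-1.58 ± 0.08), the cap-binding subunit Ncbp1 (-1.71 ± 0.10), the scaffold Sympk (-1.62 ± 0.11) and the exonuclease Eri1 (-1.48 ± 0.11) had the smallest p.

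Variant histones, most of whose mRNAs are polyadenylated, were mixed: of 11, 3 were higher, 4 lower and 4 not called, with a median log2 fold change of -0.16. H2afj was higher (1.07 ± 0.11), while H2afx (-1.40 ± 0.13), H2afy (-1.20 ± 0.14) and Cenpa (-0.91 ± 0.09) were lower. Of the other RNAs without poly(A) tails, 5 of the 12 listed are in the files. The minor spliceosome RNAs Rnu11 (1.23 to 4.97 CPM in lung, 0 to 0.04 CPM in spleen) and Rnu12 (1.35 to 5.70 CPM in lung, 0 to 0.13 CPM in spleen) were higher in lung. Both passed the filter on low counts through their lung libraries, so their rises partly follow from the filter. Rmrp was lower (0 to 1.05 CPM in lung, 0.80 to 8.78 CPM in spleen), and Terc and Rpph1 were not called (adjusted p = 0.0829 and 0.506, edgeR).

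Tissue, culture, stimulation and library kit cannot be told apart in this comparison, and the markers of epithelial, myeloid and erythroid cells move with it (2 erythroid markers, 192.3 to 19930 summed RPKM in lung and 0.064 to 0.151 in spleen). Their part in the result was not tested. On log2(RPKM + 1) with limma the median of the members was 1.33 (61 higher, 2 lower, against 15.1% and 56.5% of all genes), and with only Crlf2-deleted lung against TCR + TSLP in edgeR it was 3.46.

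The features of the RNA were set beside these differences without a test. Members whose annotated transcript runs 100 or more bases past the stem-loop had a median log2 fold change of 2.99 (21 of 21 tested higher), members with fewer than 100 bases past it 2.89 (19 of 21 higher) and members with no match, or with no coding transcript, 2.46 (23 of 25 higher). Between the first 2 classes the medians differed by little beside the spread within each, which ran from 1.29 to 6.48 and from -0.24 to 4.34. The 17 tested members with less than 50% of their windows in other members had a median of 3.16 (15 higher), and the 50 with 50% or more had 2.57 (48 higher). Members of the Hist2 cluster had a median of 4.33 (9 of 10 higher) and those of the Hist1 cluster 2.49 (50 of 53 higher).

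Many H2A and H2B genes stand head to head. Among the 62 members with a RefSeq promoter window, 10 such pairs had start sites 164 to 281 bases apart, all on chromosome 13. Pairs with Hist2h2be, Hist1h2bc or Hist3h2bb-ps, which had no such window, are therefore not among the 10. This grouping was made after the values had been seen. In 6 pairs the H2A gene had the higher lung-over-spleen log2 fold change, and in 4 the H2B gene had. Among the 10, the widest gaps were in the 2 pairs that hold Hist1h2bk and Hist1h2bj, H2B genes not called above. Hist1h2ah was higher in lung by 2.98 ± 0.20 and its partner Hist1h2bk by 0.44 ± 0.29. Hist1h2ag was higher by 2.18 ± 0.15 and its partner Hist1h2bj lay at -0.24 ± 0.23. In the other 8 pairs both genes were higher in lung, and the 2 values lay within 1.58 of each other. Outside the 10, Hist2h2be stands head to head with Hist2h2ac on chromosome 3 in the GENCODE annotation. Hist2h2ac was higher in lung by 4.31 ± 0.22 and Hist2h2be lay at -0.10 ± 0.32, a wider gap than in any of the 10. The other pairs without such a window were closer, with both genes higher in lung. They are Hist1h2ac (3.19 ± 0.20) with Hist1h2bc (2.21 ± 0.22) and Hist3h2a (3.16 ± 0.18) with Hist3h2bb-ps (4.31 ± 0.65).

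**Figure D3:**
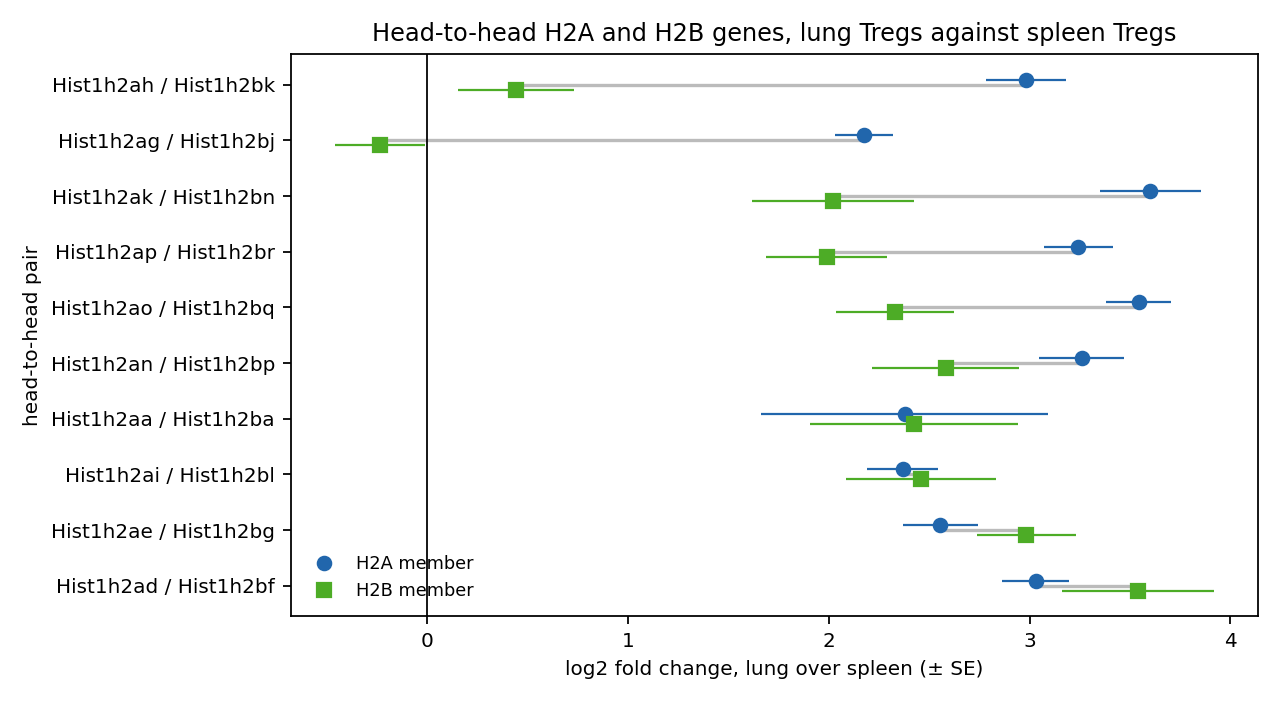
Log2 fold change of lung Tregs over spleen Tregs in 10 head-to-head pairs, with the H2A gene as a circle, the H2B gene as a square, and SEs as bars. The top rows show Hist1h2ah at 2.98 with Hist1h2bk at 0.44 and Hist1h2ag at 2.18 with Hist1h2bj at -0.24.

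The regions between Hist1h2ah and Hist1h2bk and between Hist1h2ag and Hist1h2bj are shown. Each lies between a gene that was higher in lung and one that was not called. They are the RefSeq promoter windows of the H2B gene (GRCm38.p6, plus strand, 250 bases before to 50 after its start), and each holds the start of the H2A partner. Capitals mark ATTTGCAT (the octamer bound by Oct-1), TATAAA and CCAAT on either strand, and no motif overlaps another in these windows.
Hist1h2bk, chr13:22035571-22035870: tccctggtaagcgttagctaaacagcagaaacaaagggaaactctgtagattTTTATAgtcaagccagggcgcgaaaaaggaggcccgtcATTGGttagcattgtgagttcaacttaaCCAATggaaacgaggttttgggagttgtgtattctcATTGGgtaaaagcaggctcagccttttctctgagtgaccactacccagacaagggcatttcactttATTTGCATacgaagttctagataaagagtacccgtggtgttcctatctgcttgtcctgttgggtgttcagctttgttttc
Hist1h2bj, chr13:22042948-22043247: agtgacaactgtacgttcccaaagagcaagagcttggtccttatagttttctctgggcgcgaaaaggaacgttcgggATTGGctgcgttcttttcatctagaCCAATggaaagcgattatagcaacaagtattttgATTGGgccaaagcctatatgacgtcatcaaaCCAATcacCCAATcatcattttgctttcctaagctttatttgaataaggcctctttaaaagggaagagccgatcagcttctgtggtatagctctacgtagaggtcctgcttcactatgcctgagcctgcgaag
Promoter windows were found for 62 members. ATTTGCAT was in 13 of them (21.0%), 7 of 18 H2A and 6 of 16 H2B genes and 0 of the other families, and in 1.71% of 26963 other genes. TATAAA was in 56.5% of members and 14.1% of other genes, and CCAAT in 85.5% of members and 37.8% of other genes. All H1, H2A, H2B and H3 windows held CCAAT, and 3 of 12 H4 windows did.

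The comparison of TCR + TSLP with TCR asks what TSLP adds to TCR stimulation, within 1 tissue and 1 stated kit. It shares its libraries with the comparison of lung and spleen. Histone genes fell almost as a whole: of 64 members tested, 62 were lower in TCR + TSLP, 0 were higher and 2 were not called, where 23.1% of all 13214 genes tested were lower and 22.7% higher (edgeR's quasi-likelihood test, adjusted p under 0.05). The median log2 fold change of the tested members was -1.59, against 0.01 for all genes. In all 64 both TCR + TSLP libraries lay below both TCR libraries, which held for 37.3% of all genes. By family, 5 of 5 H1, 15 of 16 H2A, 17 of 18 H2B, 12 of 12 H3 and 13 of 13 H4 genes fell, with medians of -2.07, -1.37, -1.54, -1.59 and -1.75. The family counts depended on the fit: with all 4 groups in 1 fit 43 of 67 members were lower (5.64% of all genes), among them 5 H2B and 8 H4 genes, and without TCR + TSLP library 2 there were 8 H2B genes lower. Some genes that mark other lymphocytes were lower as well: Cd8a (-0.47 ± 0.14) and Cd8b1 (-0.92 ± 0.11) of CD8 T cells and Cd79a (-0.66 ± 0.12) of B cells, while Ms4a1 of B cells lay at 0.22 ± 0.14 and was not called. The CD8 T cell markers summed to 5.16 to 5.21 RPKM in TCR + TSLP and to 6.59 to 7.57 RPKM in TCR, and the part of other lymphocytes in the result was not tested.

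The largest falls were in 3 genes at low level. In TCR + TSLP they had 9 and 10 (Hist2h4), 12 and 12 (Hist2h2bb) and 7 and 7 reads (Hist4h4). They passed the filter on low counts through their TCR libraries, so their place among the largest falls partly follows from the filter. Hist2h4 was at 0.24 and 0.18 CPM in TCR + TSLP and at 2.29 and 0.64 CPM in TCR, or -2.82 ± 0.65 on the log2 scale (SE; adjusted p = 0.00893, edgeR). Hist2h2bb was at 0.32 and 0.21 CPM in TCR + TSLP and at 2.36 and 1.24 CPM in TCR (-2.78 ± 0.46, adjusted p = 0.0023, edgeR), and Hist4h4 at 0.19 and 0.12 CPM in TCR + TSLP and at 1.39 and 0.64 CPM in TCR (-2.73 ± 0.56, adjusted p = 0.00544, edgeR). In each the 2 TCR libraries differed from one another more than the 2 TCR + TSLP libraries did.

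Several members at higher level fell as well. Among linker histones, Hist1h1c was at 4.12 and 4.37 CPM in TCR + TSLP and at 9.14 and 8.81 CPM in TCR (-1.08 ± 0.15, adjusted p = 0.00117, edgeR). Hist1h1e was at 1.85 and 2.16 CPM in TCR + TSLP and at 11.5 and 5.46 CPM in TCR (-2.07 ± 0.34, adjusted p = 0.00233, edgeR). Hist1h1d lay at -2.47 ± 0.30 and Hist1h1b at -2.31 ± 0.34. The groups did not overlap in any of these 4.

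Of the core histones, the H2A gene Hist1h2ag was at 4.84 and 4.98 CPM in TCR + TSLP and at 11.6 and 10.7 CPM in TCR (-1.18 ± 0.14, adjusted p = 0.000567, edgeR). Hist1h2bj, the most abundant H2B gene, was at 5.21 and 3.79 CPM in TCR + TSLP and at 17.9 and 12.9 CPM in TCR (-1.79 ± 0.21, adjusted p = 0.000518, edgeR). The H3 gene Hist1h3b was at 2.03 and 2.21 CPM in TCR + TSLP and at 5.85 and 5.66 CPM in TCR (-1.43 ± 0.19, adjusted p = 0.000925, edgeR). Among the 12 H3 genes the falls were close to one another, from -1.89 to -1.42. Hist1h4i, the most abundant H4 gene, was at 10.4 and 10.2 CPM in TCR + TSLP and at 16.8 and 17.3 CPM in TCR, and its fall was the smallest of the 62 (-0.73 ± 0.11, adjusted p = 0.00166, edgeR).

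The 2 members not called were Hist3h2a and Hist2h2be. Hist3h2a was at 4.06 and 3.26 CPM in TCR + TSLP and at 5.07 and 4.23 CPM in TCR (-0.35 ± 0.21, adjusted p = 0.202, edgeR). Hist2h2be was at 2.89 and 3.08 CPM in TCR + TSLP and at 3.10 and 3.31 CPM in TCR (-0.10 ± 0.21, adjusted p = 0.719, edgeR).

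**Figure D4:**
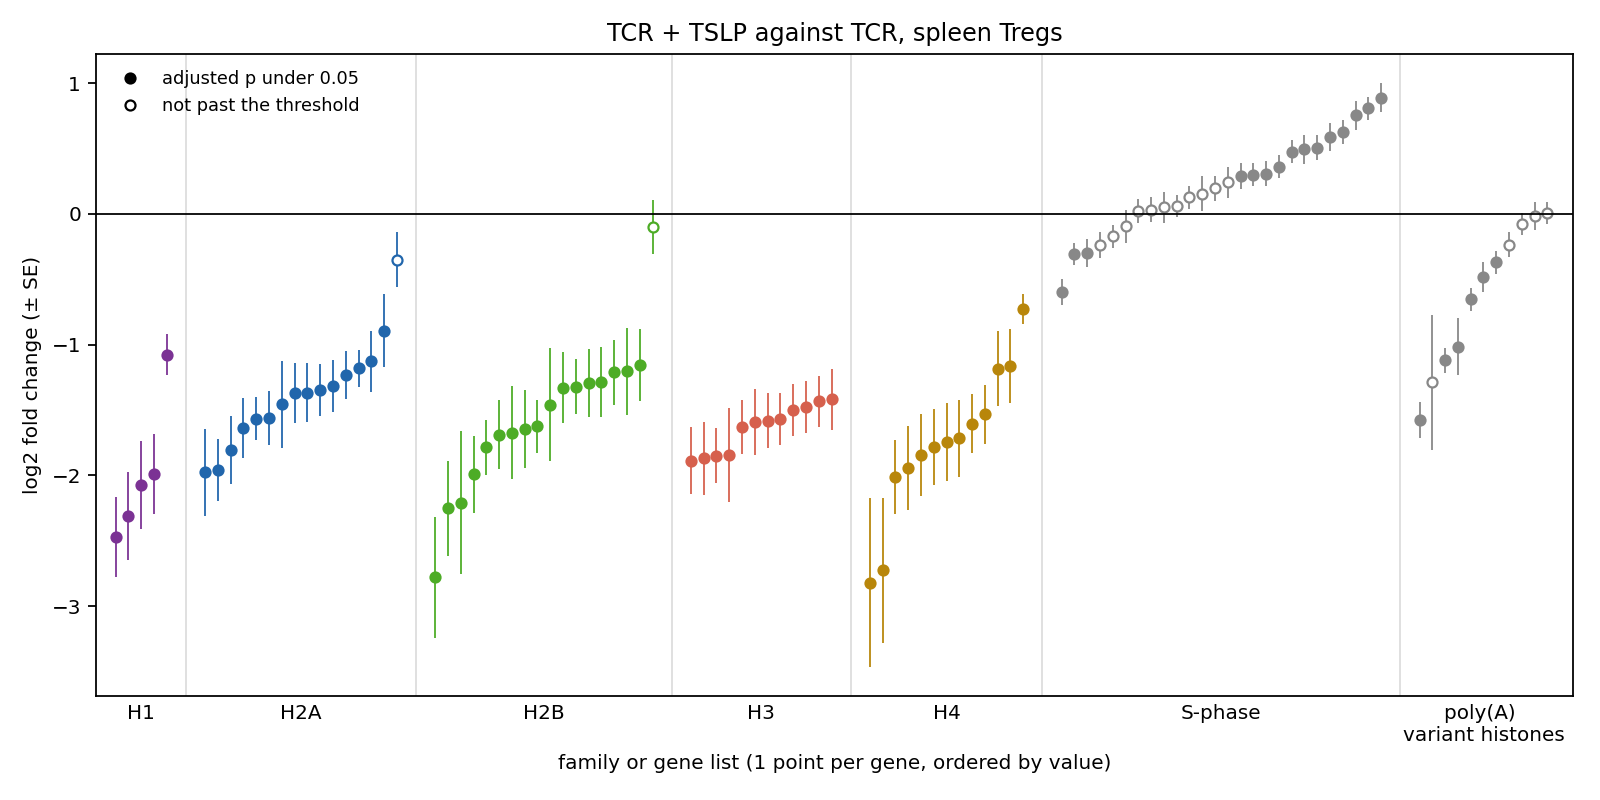
Log2 fold change of TCR + TSLP over TCR for the tested members of each family and for 2 gene lists, 1 point per gene with its SE. Filled points passed an adjusted p of 0.05; 62 of 64 histone genes are filled and below 0, beside 12 S-phase genes filled above 0 and 3 filled below it.

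S-phase genes did not fall along with the histone genes: of 26, 12 rose, 3 fell and 11 were not called, with a median log2 fold change of 0.22. Pola1, the catalytic subunit of the polymerase that primes DNA synthesis, was at 80.5 and 85.6 CPM in TCR + TSLP and at 47.4 and 47.6 CPM in TCR (0.81 ± 0.09, adjusted p = 0.00044, edgeR). The helicase subunit Mcm4 (0.89 ± 0.11), the S-phase cyclin Ccne2 (0.75 ± 0.11) and the maintenance methyltransferase Dnmt1 (0.62 ± 0.09) also rose, while Tyms, Gins1 and Lig1 fell. By library totals alone 19 rose and 1 fell, and with all 4 groups in 1 fit 4 rose and 0 fell. Of the genes for processing and transcription of histone mRNA, 6 of 15 rose and 3 fell. The risers with the smallest p were Casp8ap2 (1.17 ± 0.10) and Npat (0.70 ± 0.11), both needed for transcription of histone genes, and the cleavage factors Cpsf2 (0.61 ± 0.11) and Cstf2 (0.54 ± 0.10). Slbp, whose protein binds the stem-loop, rose by 0.40 ± 0.12 (adjusted p = 0.0251, edgeR). Of 14 chaperones, 4 rose and 2 fell, with Hira (0.48 ± 0.09) and Nap1l4 (0.36 ± 0.09) among the risers and Chaf1b (-0.55 ± 0.09) and Nasp (-0.38 ± 0.10) the 2 that fell. These counts depended on the fit too. By library totals alone 8 processing genes rose and 0 fell, and 9 chaperones rose and 1 fell. With all 4 groups in 1 fit 2 processing genes rose and 0 fell, and 0 chaperones rose or fell.

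Of the polyadenylated variant histones, 6 of 11 fell and 0 rose, with a median of -0.48: H2afj (-1.58 ± 0.14), H2afv (-1.12 ± 0.10), H1fx (-1.02 ± 0.22) and Cenpa (-0.65 ± 0.09) had the smallest p. By library totals alone 4 of them fell and 1 rose, and with all 4 groups in 1 fit 3 fell and 0 rose. The 2 other RNAs without poly(A) tails that had enough reads also fell. Rpph1, the RNA of RNase P, was at 2.03 and 2.13 CPM in TCR + TSLP and at 11.7 and 22.1 CPM in TCR (-3.02 ± 0.30, adjusted p = 0.000327, edgeR), and Rmrp at 0.71 and 0.91 CPM in TCR + TSLP and at 2.91 and 8.09 CPM in TCR (-2.78 ± 0.48, adjusted p = 0.00297, edgeR).

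Transcript length moved with this comparison. Among genes that are no members, the 367 with a listed length of 600 bases or fewer had a median log2 fold change of -0.91 (225 lower, 16 higher), and the 12783 longer ones a median of 0.02. Members of 600 bases or fewer had a median of -1.60 (44 of 44 lower), and members over 600 bases a median of -1.41 (18 of 20 lower). With a smooth trend on length removed, 32 of 64 members were lower and 0 higher in edgeR (17.8% of all genes were lower), with a median of -0.62; 3 of the 13 H4, 9 of the 18 H2B and 7 of the 16 H2A genes were among the 32. The part of length, and of the recovery of RNAs without poly(A) tails, in the fall of the histone genes was not tested. On log2(RPKM + 1) in limma, which understates changes of low genes, 60 were lower (9.88% of all genes) with a median of -0.75.

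The comparison of Crlf2-deleted with control lung Tregs asks what the loss of the TSLP receptor subunit in Tregs changes. No single histone gene passed the threshold: of 66 members tested, 0 were higher and 0 lower, where 0.771% of all 12717 genes tested were higher and 1.01% lower (edgeR's quasi-likelihood test, adjusted p under 0.05). At an unadjusted p under 0.05 there were 10 of 66 members, 8 of them H3 genes, and 15.9% of all genes, so the members' count was near that of all genes. DESeq2 called 3 of 66 members lower (Hist2h3b, Hist2h3c1 and Hist2h3c2) and 3.92% of all genes, which is again a similar share. The median log2 fold change was -0.17, against -0.04 for all genes. Power was limited: on simulated counts with this design, 39 of 100 changes of 2-fold and 68 of 100 of 4-fold were found.

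The families lay apart in their central values, with no test of the difference between them. The 12 H3 genes had a median log2 fold change of -0.70 and ran from -0.91 to -0.52. The 5 tested H1 genes had a median of 0.36, H2A of 0.10, H2B of -0.17 and H4 of -0.41, with values from -0.70 to 1.41 across these 4 families. In reads, H3 genes gave 28.5%, 28.9% and 22.6% of the members' reads in Crlf2-deleted lung and 42.7%, 41.7% and 32.9% in control lung, and H1 genes gave 22.8%, 22.7% and 28.2% in Crlf2-deleted lung and 15.7%, 12.5% and 20.6% in control lung. H2A genes gave 28.03%, 25.96% and 28.59% in Crlf2-deleted lung and 21.11%, 21.05% and 24.66% in control lung. The shares of H3, H1 and H2A did not overlap between the genotypes, and those of H2B and H4 did. Since the shares of a library add up to a fixed whole, a lower share of H3 raises the others.

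Hist2h3c1 was at 192, 180.0 and 144 CPM in Crlf2-deleted lung and at 370.0, 385 and 203 CPM in control lung. The groups did not overlap, though control library 3 lay close to the Crlf2-deleted libraries, and the difference was -0.89 ± 0.24 on the log2 scale (SE; adjusted p = 0.121, edgeR). Hist2h3c2 lay at -0.91 ± 0.27 and Hist2h3b at -0.88 ± 0.26 (adjusted p = 0.155 and 0.145, edgeR). Hist1h4d was at 181, 205 and 166 CPM in Crlf2-deleted lung and at 282, 370.0 and 162 CPM in control lung (-0.55 ± 0.27, adjusted p = 0.369, edgeR), and here the groups overlapped. Hist1h1c, the leading H1 gene, was at 320.0, 253 and 375 CPM in Crlf2-deleted lung and at 192, 182 and 273 CPM in control lung (0.55 ± 0.20, adjusted p = 0.229, edgeR). The member furthest above 0 was Hist2h2bb, chosen after its values were seen, at 9.43, 6.88 and 8.65 CPM in Crlf2-deleted lung and 2.94, 3.42 and 3.12 CPM in control lung (1.41 ± 0.41, adjusted p = 0.142, edgeR).

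**Figure D5:**
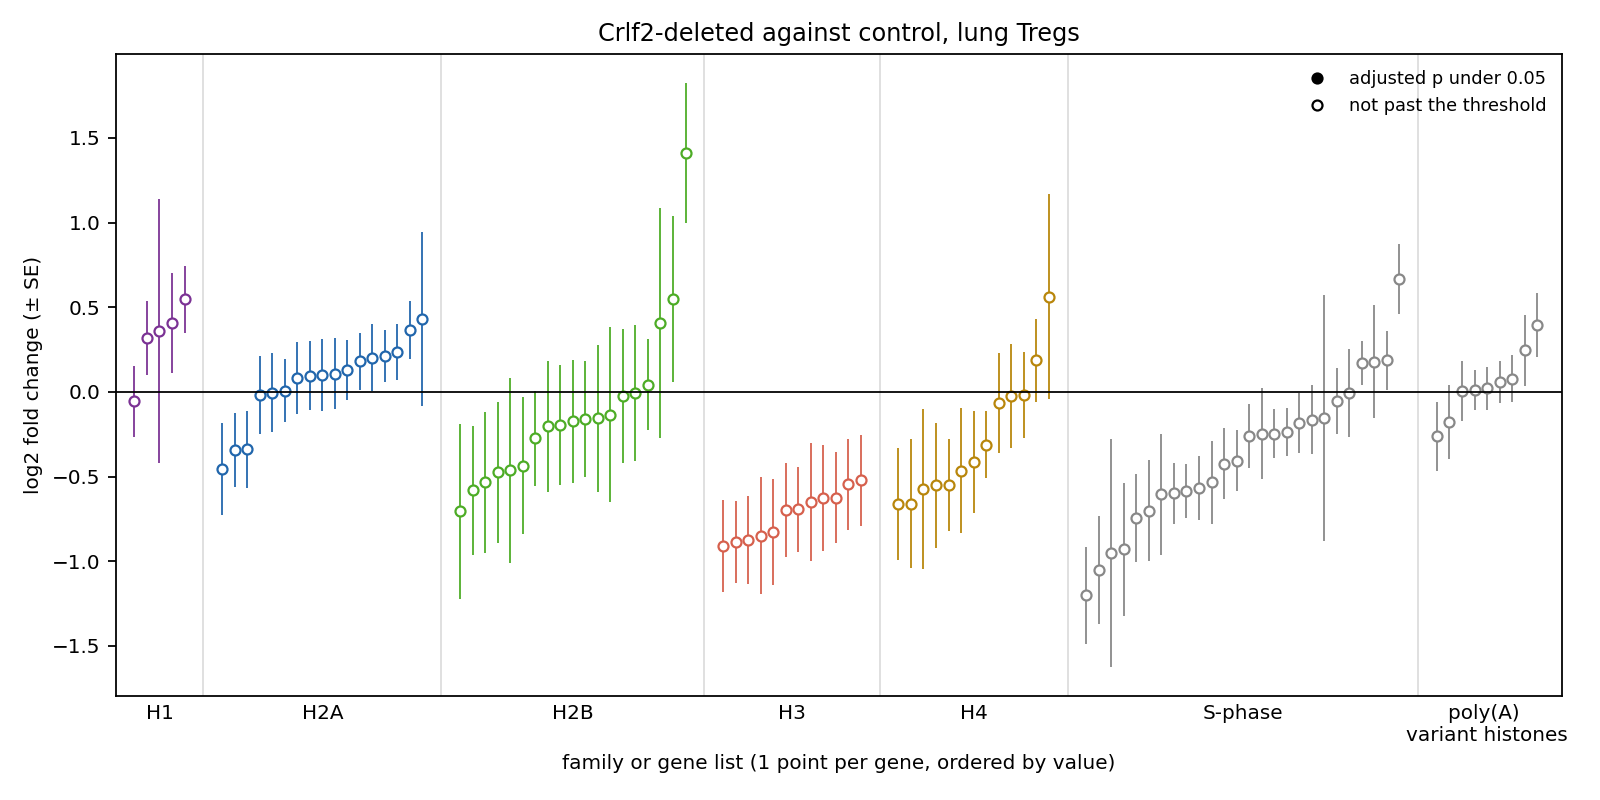
Log2 fold change of Crlf2-deleted over control lung Tregs for the tested members of each family and for 2 gene lists, 1 point per gene with its SE. All points are open, since none passed an adjusted p of 0.05; the 12 H3 genes all lie below 0, between -0.91 and -0.52.

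S-phase genes had a median log2 fold change of -0.33 with 0 of 26 called, the cyclin Ccna2 having the smallest p (-1.20 ± 0.29, adjusted p = 0.086, edgeR). Of the variant histones 0 of 9 tested were called, and of the genes for histone mRNA processing 0 of 15. One chaperone was called: Daxx, which deposits the variant H3.3, was at 86.0, 115 and 116 CPM in Crlf2-deleted lung and at 210.0, 286 and 292 CPM in control lung (lowest, median and highest in each; -1.31 ± 0.18, adjusted p = 0.0181, edgeR). The control lung libraries were the more uneven, with erythroid markers at 192.3 to 19930 summed RPKM (285.1 to 376.3 in Crlf2-deleted lung), and the part of other cells in these values was not tested. Without control library 3, edgeR called 4 of 66 members lower (Hist1h4d, Hist2h3b, Hist2h3c1 and Hist2h3c2) and 1 higher (Hist1h1c), and calls over all genes were more frequent there too (2.17% lower and 1.95% higher).

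Some members are known for expression in the testis. Hist1h1t, the testis form of H1, had 0 of 61167441 reads in the 6 lung libraries, which allows up to 0.049 CPM, and 1 read in the 4 spleen libraries. Hist1h2aa and Hist1h2ba, a head-to-head pair known from the male germ line, were above 0 in all libraries at low level (0.37 to 0.84 CPM and 2.55 to 6.33 CPM in lung, 0.06 to 0.26 CPM and 0.14 to 1.43 CPM in spleen). Hist1h2ba shares 38.2% of its coding windows with other H2B genes, and Hist1h2aa shares 2.3% with other H2A genes. Both were higher in lung (2.38 ± 0.72 and 2.43 ± 0.52, adjusted p = 0.0113 and 0.00142, edgeR). Hist1h2aa had 2 and 5 reads in TCR + TSLP, 2 and 6 in TCR, and 1 to 17 in the lung libraries. It passed the filter on low counts through its lung libraries, so its rise partly follows from the filter.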

How the data were processed

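Per the file headers, each deposited table gives counts for RefSeq transcripts, with transcript length and the authors' RPKM beside them. Listed reads are 14.9% to 23.6% of the total behind RPKM in lung and 37.8% to 44.5% in spleen. Per the submitters' processing notes, the build was mm10 (GRCm38), and the tools included edgeR, bedtools 2.25.0, TopHat2 2.2.1 with Bowtie2 2.2.6, and SAMtools 0.1.8. In R 4.3.3, edgeR 4.0.16 tested the counts (quasi-likelihood, TMM, filterByExpr with minimum count 10, robust, two-sided), with Benjamini-Hochberg adjustment over all genes and a threshold of 0.05. The SE is the log2 fold change over the root of F. Levels are CPM after TMM within the libraries of each comparison. Lung against spleen is the mean of 2 lung groups minus the mean of 2 spleen groups. Alternatives used DESeq2 1.42.0, limma 3.58.1 on log2(RPKM + 1), other scalings, no filter, a loess on length (span 0.3), a replicate block and left-out libraries.

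Members and lists were chosen with earlier results of these data known. Named were the 4 members of each family with the highest mean RPKM, up to 3 largest rises and falls per comparison, members running 100 or more bases past the stem-loop, up to 4 genes per list by p, and Crlf2. Outside this rule, and chosen after their values were seen, are Hist2h2be, Hist2h2bb in lung, and the other members named for lacking a call or shared windows, for the extremes of a family or as head-to-head or germ-line genes; likewise list genes beyond the 4. The test was tried on simulated counts with 200 changed genes (TSLP design: 80 of 100 recovered at 2-fold, 97 of 100 at 4-fold, 7 false of 184 calls; lung and spleen: 53, 82, 11 of 146; Crlf2: 3 false of 110). Replicates of a group differed beyond sampling noise. The floor given for Hist1h1t covers counting error only, while SEs and SDs also hold the spread among libraries. Stem-loops and coding windows came from GENCODE vM21 transcripts, and promoters from RefSeq.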

Additional observations from a re-analysis of the deposited data

How the results depend on the processing

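Of 135 recomputed counts and medians over the members, 119 stayed on their side and within the limits set. With the length trend removed, TCR + TSLP against TCR had 32 members lower and a median log2 fold change of -0.621, and lung against spleen had 1 lower (Hist1h2bj) and a median of 2.186. With limma on log2(RPKM + 1), the medians were -0.753 for TSLP, 0.167 for Crlf2 (reversed, with 2 higher, Hist2h2bb and Hist2h2aa2) and 1.33 for lung against spleen (2 lower, Hist1h2bj and Hist2h2be). By library totals alone the Crlf2 median was 0.012 (reversed), while the median of all genes moved to 0.139 there, to 0.238 for TSLP and to 0.233 for lung against spleen. Calls over all genes split 2999 higher to 3051 lower for TSLP and 5063 to 2000 by totals, 98 to 129 for Crlf2 and 135 to 56 by totals, and 5025 to 5157 for lung against spleen and 5772 to 4344 by totals. For Crlf2, DESeq2 called 3 lower and all 4 groups in 1 fit called 1 lower (Hist2h3c1). For lung against spleen, control lung against TCR gave a median of 2.113 (53 of 66 higher) and Crlf2-deleted lung against TCR + TSLP gave 3.456. Leaving out 1 library at a time gave 50 to 63 lower (median -1.726 to -1.415) for TSLP, 0 to 1 higher and 0 to 4 lower (median -0.265 to -0.068) for Crlf2, both highest without control library 3, and 61 to 63 higher (median 2.594 to 2.815) for lung against spleen. Signs of members turned as follows. For TSLP, Hist2h2be was 0.13 by library totals and 0.088 on RPKM, Hist3h2a 0.013 on RPKM and Hist1h4i 0.218 with the length trend removed. For lung against spleen, Hist2h2be was 0.13 by totals and 0.273 in Crlf2-deleted lung against TCR + TSLP, where Hist1h2bj was 0.624, and Hist1h2bk was -0.218 with the length trend removed, -0.072 in control lung against TCR and -0.368 on RPKM. The cause of these changes was not tested. With the replicate number as a block, 62 members were lower for TSLP, 0 for Crlf2, and 63 were higher for lung against spleen. Same-numbered libraries showed little shared deviation (correlations -0.102 to 0.044). With 2 or 3 libraries per group these values cannot exclude a pairing. Over all genes the block left 32 higher and 89 lower for Crlf2, against 98 and 129 without it.

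The smallest library, control lung 2 with 1439675 reads, gave 5026 reads over all members and 3 reads of Hist1h1a. Reads shared among near-identical copies, unstated rules for strand and multiple matches, and the unstated lung kit limit every single-gene value. With 2 libraries per spleen group the spread rests on few values.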

Other observations

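In H1, mean RPKM in control lung ran from 0.42 (Hist1h1a) to 24.0 (Hist1h1c) among the 5 members with reads, and in TCR from 0.70 (Hist1h1d) to 2.13 (Hist1h1c). Hist3h2bb-ps, annotated as a pseudogene by its symbol, had 32, 26 and 49 reads in Crlf2-deleted lung, 6, 4 and 27 in control lung, 3 and 7 in TCR + TSLP and 2 and 2 in TCR, and it was higher in lung than in spleen (log2 fold change 4.31 ± 0.65, adjusted p = 0.000113, edgeR's quasi-likelihood test). It has no coding transcript, and 30.0% of the 50-base windows of its whole transcript are also in Hist3h2ba. Hist2h2ab, an H2A gene with 24.1% of its coding windows in other members, was also higher in lung (4.24 ± 0.52, adjusted p = 1.92e-05, edgeR). It had 5 and 14 reads in TCR + TSLP and 8 and 5 in TCR. Hist3h2bb-ps and Hist2h2ab passed the filter on low counts through their lung libraries, so their rises partly follow from the filter.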
